A study of Mus musculus with 5 samples.

Results

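The genes described here are a family of 45 that, apart from the noncoding Cep83os, encode proteins of the centrosome and the material around it. The authors' deposited table of het against WT holds 14927 genes, and their gene tables hold 57186. The 45 were taken by name, as every symbol that starts with Cep and a number plus Pcm1, Pcnt, Cntrl, Nin, Ninl, Akap9 and Cdk5rap2. The family was picked because Cep350 and Pcm1 were higher in het libraries, so all het against WT values below are a description of these libraries and give no independent support. Cardiac atria came from mice labelled MRC2 E990G-het, which are heterozygous for that change in MRC2 (called het), and from wild-type mice (WT), aged between 4 and 10 months. MRC2 is an endocytic collagen receptor. The series text counts 7 het and 8 WT atria, and RNA was extracted per pair of atria. The libraries analysed here are those of het replicates 5, 6 and 7 and WT replicates 7 and 8, all of batch 2, prepared as stranded polyA RNA sequencing libraries. The labels used here give neither strain nor sex, nor the age of each library.

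In dividing cells the centrosome is a pair of centrioles inside a protein matrix that nucleates microtubules. Satellites, which are granules built on Pcm1, move proteins to it, and appendages on the older centriole anchor microtubules and the primary cilium. Heart muscle cells take the centrosome apart after birth and move pericentriolar proteins, including Pcm1, to the nuclear envelope, where nesprin-1 and Akap6 hold them. Antibodies to Pcm1 are therefore used to mark heart muscle nuclei. Akap9, also known as yotiao, brings protein kinase A to the centrosome and the Golgi and, in the heart, to the Kcnq1 potassium channel.

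Total expected counts were 17784601 (WT 8) to 28353091 (het 7) per library. The lowest expected count of any of the 45 genes in any library was 26, so all 45 were detected in all 5 libraries and all 45 passed the expression filter. The atrial light chain gene Myl7 stood at 18223 to 22140 TPM (abundance scaled to transcript length and library total), against 4.0 to 319 TPM for the ventricular light chain gene Myl2, and Nppa, the atrial natriuretic peptide gene, at 38975 to 62536 TPM. WT 7 stood apart in genes that mark sex: it had 938 expected counts of Y-linked Ddx3y, where the other 4 libraries had 0 to 3, and 0.20 TPM of Xist, where they had 31.0 to 61.3. By these genes 1 of the 2 WT libraries was male and the other 4 libraries female, so values without WT 7 are given beside the first counts. With bulk tissue, more cells of a type and more RNA per cell cannot be told apart. The labels do not tie each library to its own animal, so p-values measure only the spread between these libraries.

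Most of the family lay slightly above 0. Of 45 genes, 6 were called higher in het and 0 lower (edgeR quasi-likelihood test over all genes, adjusted p under 0.05), beside 2.99% of all 16412 tested genes called higher and 2.66% called lower. The 6 were Cep350, Nin, Pcm1, Cep85l, Akap9 and Cep170. Of the 45 fold changes 33 were above 0, and their median was 0.23 on the log2 scale, where the median of all tested genes was -0.001. At an unadjusted p under 0.05 by edgeR there were 13 genes higher and 0 lower, beside 12.9% and 11.9% of all genes. In 19 genes every het library had more counts relative to library size (CPM, scaled by TMM) than every WT library, and in 1 gene, Cep44, every het library had less. Over all tested genes these shares were 21.1% and 21.1%. Scaling by library size alone changed the calls over all genes from 490 higher and 436 lower to 795 and 391, and upper-quartile scaling to 327 and 568. The family then had 7 and 5 genes higher and 0 lower, beside 4.84% and 1.99% of all genes higher. DESeq2 called 6 of the family higher, beside 5.28% of all genes, and limma-voom 4, beside 1.44%. All 6 calls were lost when het 5, het 6 or het 7 was left out, as were nearly all calls over all genes (0%, 0.0306% and 0% higher). The folds in those fits were 0.93 to 1.0 for Cep350 and 0.76 to 0.85 for Pcm1. Without WT 7, 3 genes were called (Cep350, Nin and Pcm1), beside 1.52% of all genes. The log2 fold changes without WT 7 were 0.78 for Cep350, 0.92 for Nin, 0.79 for Pcm1, 0.66 for Cep85l, 0.63 for Akap9 and 0.44 for Cep170. Without WT 8 there were 7 calls, beside 3.36% of all genes. Since the choice of the family used this contrast, nothing is read from these counts.

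**Figure D1:**
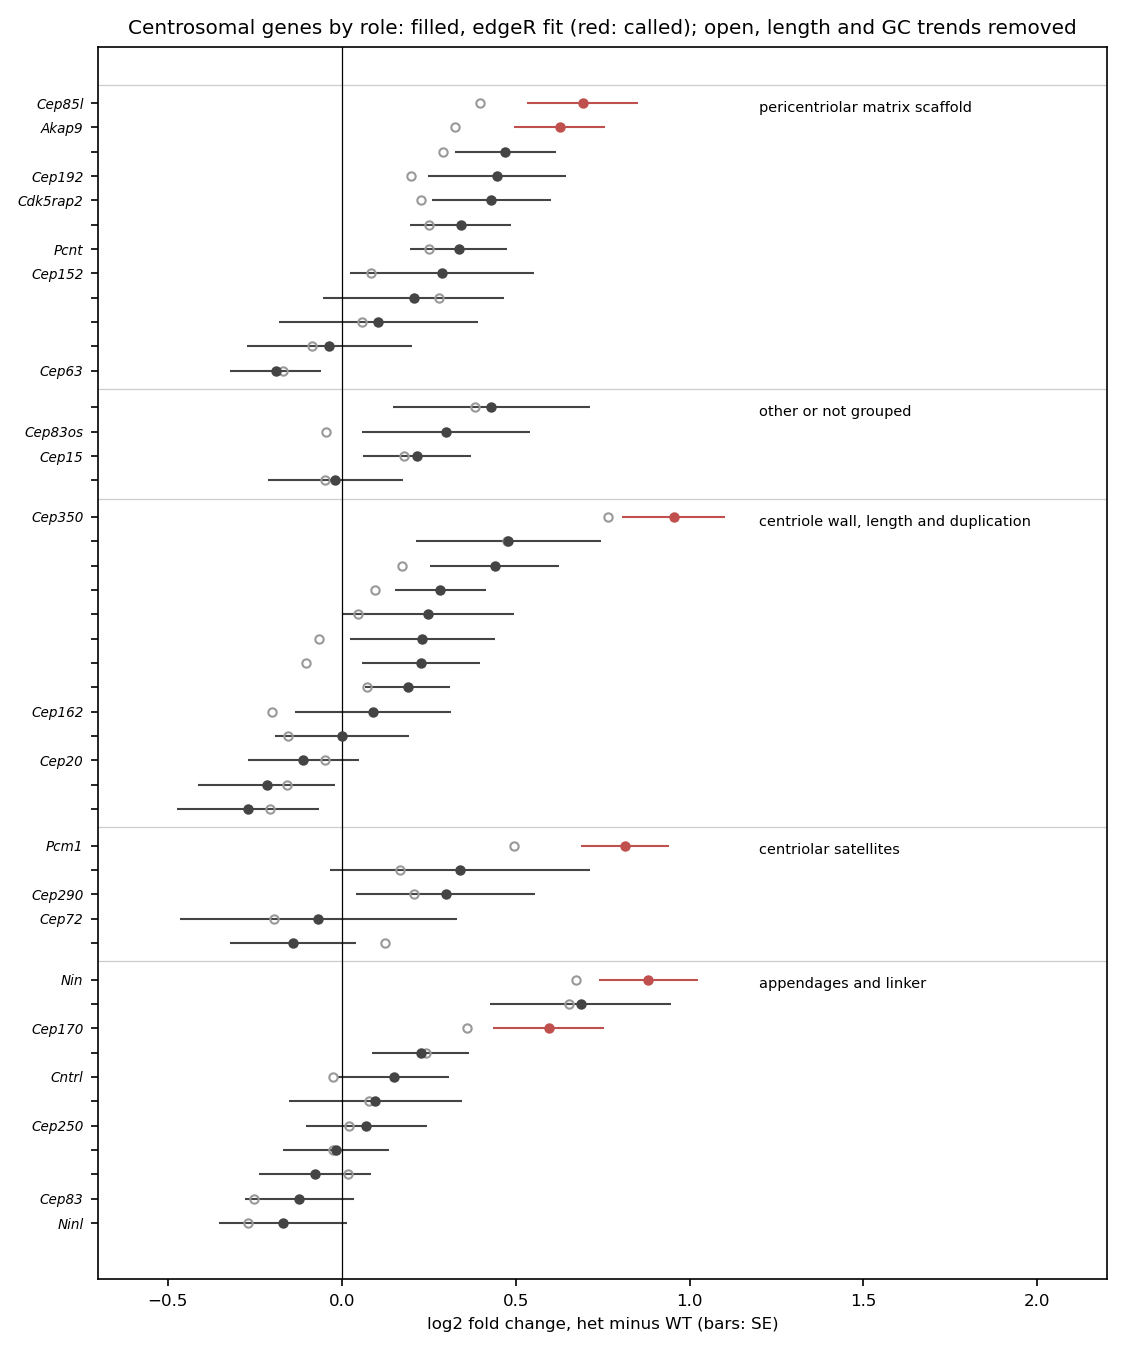
Log2 fold change of het against WT for each of the 45 genes, grouped by role, with names for the genes whose values per library are given; filled points are the edgeR fit with its SE as bars (red for genes called higher), open points the fit without trends on length and GC content. The 6 called genes lie from 0.59 to 0.95 in the edgeR fit, and every one of them lies closer to 0 as an open point.

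Among the 5 satellite genes Pcm1 (ENSMUSG00000031592), the scaffold on which satellites form, was the most abundant. Its CPM were 62.1, 55.0 and 56.2 in het 5, 6 and 7, and 32.3 and 33.4 in WT 7 and 8. The het libraries lay well above both WT libraries, which were almost level. The means were 57.8 ± 3.77 (SD, n = 3) and 32.9 ± 0.72 (SD, n = 2), a log2 fold change of 0.81 (SE 0.13). The satellite and ciliary gate gene Cep290 overlapped between the groups, with 11.8, 11.3 and 6.58 CPM in het and 7.34 and 8.71 in WT: het 7 was the lowest library of all. Cep72, a satellite protein that helps gather gamma-tubulin complexes, had the lowest level of the family at 0.58 ± 0.25 TPM (SD, n = 5). Its CPM of 1.83, 1.34 and 1.62 in het and 1.60 and 1.75 in WT overlapped as well.

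The 13 genes of the centriole wall, its length and its duplication held the largest fold of the family. Cep350 (ENSMUSG00000033671), a large protein of the centriole that works with Cep43 and Cep19, had 44.7, 44.3 and 40.2 CPM in het and 19.5 and 25.1 in WT. The lowest het library was above the higher WT library by more than the distance between the WT libraries. Its log2 fold change was 0.95 (SE 0.15), which is 1.94-fold. Its partners did not share this: Cep43 had a log2 fold change of 0.00 (SE 0.19) and Cep19 of -0.27 (SE 0.20). Cep20, a small relative of Cep43 needed for cilia, had the highest level of all 45 genes at 38.9 ± 4.7 TPM (SD, n = 5). It overlapped between the groups, with 36.3, 37.5 and 31.9 CPM in het and 31.3 and 44.8 in WT. The lowest level in this group was that of Cep162, a ciliary axoneme protein gene (1.11 ± 0.23 TPM, SD, n = 5). The Cep162 libraries overlapped as well, at 6.80, 9.44 and 8.58 CPM in het and 8.73 and 6.78 in WT. Besides Cep350, 0 of these 13 genes were called, and their log2 fold changes ran from -0.27 (Cep19) to 0.48 (Cep78, SE 0.27).

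Matrix scaffold genes were the group with the highest median fold, 0.34 over 12 genes. Akap9 (ENSMUSG00000040407) had 69.4, 57.7 and 65.0 CPM in het and 41.6 and 41.4 in WT, a log2 fold change of 0.63 (SE 0.13). Both WT libraries lay below each het library. Cep85l (ENSMUSG00000038594), a pericentriolar protein known for its part in neuron migration, had 28.7, 28.5 and 21.9 CPM in het and 15.9 and 16.7 in WT (0.69, SE 0.16). Here het 7 stood closer to the WT libraries than to the other het libraries. Pcnt, the pericentrin gene, was in CPM the most counted of the 45. Its het libraries (89.7, 106 and 86.4 CPM) were above WT 7 (81.0) and WT 8 (67.8), but the difference of 0.34 (SE 0.14) was not called. The same held for Cdk5rap2, which activates gamma-tubulin rings: it had 15.4, 14.1 and 15.6 CPM in het and 10.0 and 12.4 in WT (0.43, SE 0.17). Cep192, which recruits the mitotic kinases to the matrix, had 10.3, 12.1 and 10.1 CPM in het and 8.81 and 7.07 in WT (0.45, SE 0.20), also without a call. Cep63 and Cep152 together load the duplication kinase Plk4 onto centrioles. Cep63, at 24.4 ± 2.4 TPM (SD, n = 5), had a fold change of -0.19 (SE 0.13), with 44.8, 42.0 and 38.9 CPM in het and 44.4 and 51.2 in WT. Cep152, at 0.99 ± 0.25 TPM (SD, n = 5), had a fold change of 0.29 (SE 0.26), with 4.97, 6.0 and 7.10 CPM in het and 4.14 and 5.78 in WT. Both genes overlapped between the groups. Next to the threshold lay Cep68, a linker and matrix protein gene, outside it with a log2 fold change of 0.47 (SE 0.15), and Cep170 inside it.

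Among the 11 genes of the appendages and the centriole linker, 2 were called. Nin (ENSMUSG00000021068), ninein, anchors microtubule minus ends at subdistal appendages and is among the proteins that move to the nuclear envelope in muscle. Its CPM were 30.0, 26.1 and 27.0 in het and 15.4 and 14.7 in WT, a log2 fold change of 0.88 (SE 0.14) with a wide gap between the groups. Cep170 (ENSMUSG00000057335), another subdistal appendage protein gene, had 31.0, 32.1 and 25.6 CPM in het and 17.3 and 21.9 in WT (0.59, SE 0.16), so that het 7 and WT 8 came close. Ninl, the ninein-like gene, did not follow Nin, with 19.0, 12.4 and 14.3 CPM in het and 17.1 and 17.2 in WT (-0.17, SE 0.18). Het 5 was above and the other het libraries below WT. Cntrl, centriolin of the mother centriole, had 30.2, 31.9 and 30.0 CPM in het and 32.6 and 22.6 in WT (0.15, SE 0.16). Cep250, the linker between the centrioles, had 22.8, 20.7 and 22.5 CPM in het and 25.1 and 16.7 in WT (0.07, SE 0.17). In both genes the WT libraries enclosed all het libraries. Cep83, which starts the distal appendages, had the highest level of this group at 8.85 ± 1.3 TPM (SD, n = 5). Its 23.0, 20.1 and 20.3 CPM in het lay between 19.8 in WT 7 and 26.3 in WT 8.

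The remaining 4 genes fall in none of these roles here, and 0 were called. Cep15 had the highest level of them (11.7 ± 2.4 TPM, SD, n = 5), with 20.6, 22.2 and 17.4 CPM in het and 16.4 and 18.2 in WT. Cep83os, a noncoding gene named as the opposite strand of Cep83, had the lowest (1.85 ± 0.54 TPM, SD, n = 5), with 12.8, 14.7 and 9.27 CPM in het and 11.9 and 7.83 in WT. Both overlapped between groups. Whether counting used strand is not given in the sources used here, so reads of Cep83 and Cep83os may not be fully told apart.

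**Figure D2:**
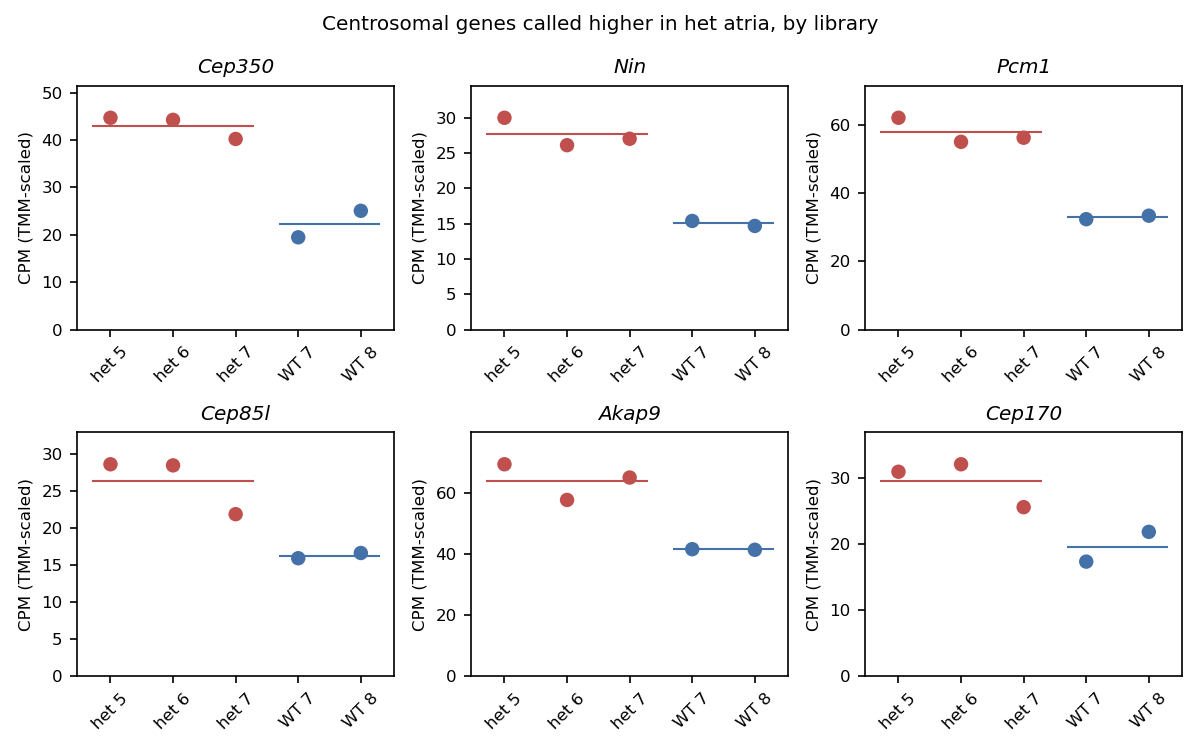
CPM (TMM-scaled, axes from 0) of the 6 called genes in each of the 5 libraries; points are libraries, red for het and blue for WT, and lines are group means. In Nin, Pcm1 and Akap9 the WT libraries are almost level (14.7 and 15.4, 32.3 and 33.4, 41.4 and 41.6), while in Cep170 het 7 (25.6) and WT 8 (21.9) come near each other.

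Since the called genes were higher together, the sequence just before their start sites is shown for the 4 of the 6 with an entry in RefSeq's promoter table (build GRCm38.p6, another build than the GRCm39 of the submitters' processing notes). Each run is read 5′ to 3′ in the direction of the gene and ends before the most upstream transcript start that GENCODE M21 places in the window. The first listed window was taken where a gene has several. Capitals mark matches, on either strand, to 4 motifs. These were CCAAT (the box bound by NF-Y) and GGGCGG (the core bound by Sp1), with CGGAAG (the core bound by ETS factors) and TTTGAA (an element of cell cycle promoters). Matches to the Sp1 and ETS cores can overlap by CGG, which both hold.
Akap9 at chr5:3927936-3928053, plus strand: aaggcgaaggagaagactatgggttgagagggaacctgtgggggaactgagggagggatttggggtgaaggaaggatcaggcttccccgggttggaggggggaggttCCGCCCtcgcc
Nin at chr12:70112036-70112285, minus strand: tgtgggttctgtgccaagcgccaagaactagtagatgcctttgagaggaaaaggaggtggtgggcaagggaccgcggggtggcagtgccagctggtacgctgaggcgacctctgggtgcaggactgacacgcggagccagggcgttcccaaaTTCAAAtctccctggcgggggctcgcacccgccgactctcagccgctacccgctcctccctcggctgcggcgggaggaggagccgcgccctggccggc
Cep85l at chr10:53379948-53380133, minus strand: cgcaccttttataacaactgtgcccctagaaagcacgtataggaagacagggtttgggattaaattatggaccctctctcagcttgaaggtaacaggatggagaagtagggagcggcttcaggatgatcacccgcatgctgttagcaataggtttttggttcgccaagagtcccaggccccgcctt
Cep170 at chr1:176814068-176814203, minus strand: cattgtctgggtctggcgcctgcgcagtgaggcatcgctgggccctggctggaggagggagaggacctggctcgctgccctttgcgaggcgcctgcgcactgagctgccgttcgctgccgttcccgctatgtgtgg
No motif was shared among these 4 runs: Akap9 held 1 GGGCGG on the opposite strand, Nin held 1 TTTGAA on the opposite strand, and the runs of Cep85l and Cep170 held 0 matches. Over the whole 250 bases before the start, 38 of the 45 genes had an entry. GGGCGG was in 27 of the 38 (71.1%), against 32.9% of all 27025 promoters in the table. These are not limited to the 16412 genes tested here, as the 45 genes are, and a background of tested genes was not counted. CCAAT was in 16 (42.1%, against 34.5%), CGGAAG in 7 (18.4%, against 13.8%) and TTTGAA in 4 (10.5%, against 16.3%). The windows of the family were also richer in G and C, with a median of 61.4% against 52.0% for all promoters. A match is a run of letters, not a bound site.

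Transcript length moved with the folds. The 6 called genes were long, with mean lengths from 4313 (Cep170) to 9408 bases (Cep350), where the median of the 45 genes was 3731 and that of all tested genes 2519. Over the 45 genes, length and log2 fold change had a Spearman rho of 0.51, and over all 16412 tested genes it was 0.45; the genes share the same 5 libraries. The longest decile of all tested genes began at 5356 bases and held 13 of the 45 genes. Of these 5 were called higher, beside 15.9% of all genes of that decile. In decile 9, 1 of 8 was called, beside 6.28%, and in decile 8, 0 of 4, beside 3.66%. In deciles 1 to 7, 0 of 20 were called, beside 0.575%, and their median fold was -0.01. In the longest decile 8 of 13 genes had every het library above every WT library, where all genes of that decile did so in 55.4%; in decile 9 it was 6 of 8, beside 43.9%. The median fold of the family was 0.30 in the longest decile, and that of all genes there was 0.33.

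Long genes of the family were not all called. Cep162 (7360 bases), Cep250 (6796 bases) and Cdk5rap2 (7540 bases) are as long as Nin or Pcm1 and had log2 fold changes of 0.09, 0.07 and 0.43. Cep128, for a subdistal appendage protein and short by this measure of length (2023 bases), stood at 0.69 (SE 0.26), uncalled. Without the trends on length and GC content, Cep128 stood at 0.65 (SE 0.25), also uncalled. Coding transcripts held 24.2 to 44.4% of its TPM, and the measure of length depends on the mix of transcripts. Whether that mix bears on the place of Cep128 was not tested. When the fit took out the trend on length alone, 0 of the 45 genes were called, beside 0.067% of all genes called higher. When it took out the trends on both length and GC content, 0 were called, beside 0.146%. Cep350 then stood at 0.77 (SE 0.14), Nin at 0.67 (SE 0.13), Pcm1 at 0.49 (SE 0.12), Cep85l at 0.40 (SE 0.14), Cep170 at 0.36 (SE 0.13) and Akap9 at 0.33 (SE 0.13). All 6 stayed above 0, and the median of the family went from 0.23 to 0.085, where that of all genes was 0.03. The part of transcript length in the higher calls was not otherwise tested.

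**Figure D3:**
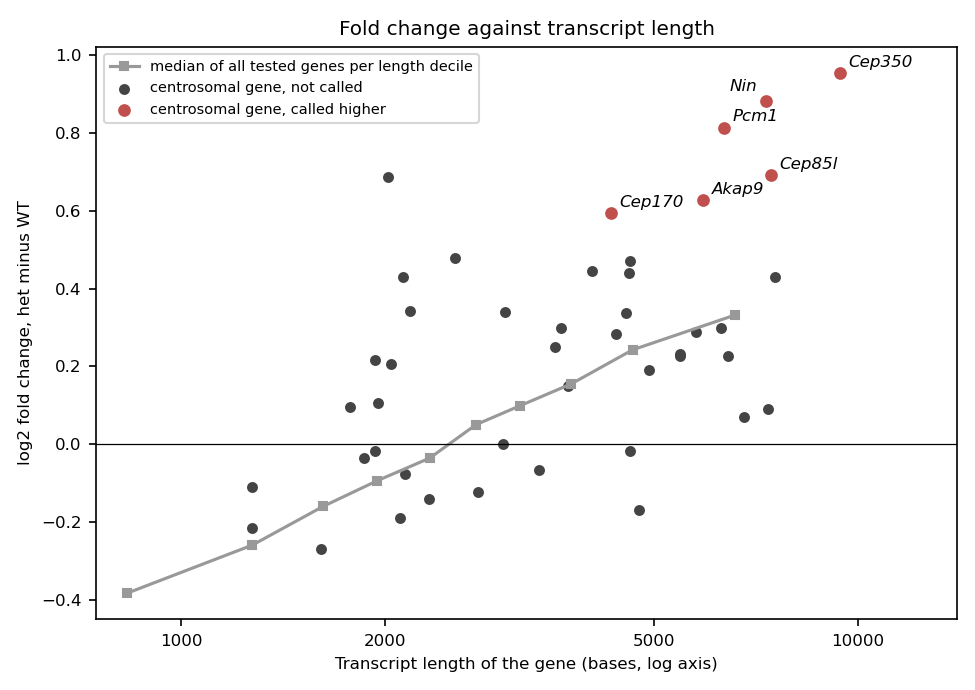
Log2 fold change of het against WT (vertical) by the gene's mean transcript length in bases (horizontal, log axis); points are the 45 genes, red where called higher, and grey squares the median of all tested genes in each length decile. The grey medians climb from -0.38 to 0.33, and the 6 called genes lie above them, at lengths of 4313 bases or more.

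The authors' deposited table, a comparison of het with WT whose samples are not given in the sources used here, orders the family otherwise. Its t is 0 for all 9779 genes with a fold change under 1.2-fold in either direction, 34 of the 45 among them, and is never 0 above it. The p-values in the authors' deposited table are therefore read as tests against that minimum fold, not against no change, and are not on the scale of the edgeR p-values. It gives Akap9 a log2 fold change of 0.96 (confidence limits 0.37 and 1.55) and Cep290 one of 0.94 (0.20 and 1.69), the highest of the 45 in the authors' deposited table. Their p-values in the authors' deposited table were 0.0017 and 0.0084, and 0.33 and 0.479 when adjusted. Of the 14927 genes in the authors' deposited table, 5.33% had a fold change above 0 and an unadjusted p under 0.05 in that test, and 0% an adjusted p under 0.05. Cep350 and Pcm1 stood at 0.05 (limits -0.53 and 0.62) and 0.06 (limits -0.45 and 0.56) in the authors' deposited table. Their values in the 5 libraries, 0.95 and 0.81, lie outside these limits. The same was so for Nin (0.22 in the authors' deposited table, limits -0.25 and 0.69), Cep85l (-0.11, limits -0.60 and 0.38) and Cep170 (-0.01, limits -0.42 and 0.40). Of the 6 genes only Akap9 was therefore above 0 by its limits in the authors' deposited table and called here. The 2 comparisons are taken to share these 5 libraries, and the other animals are not analysed here.

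**Figure D4:**
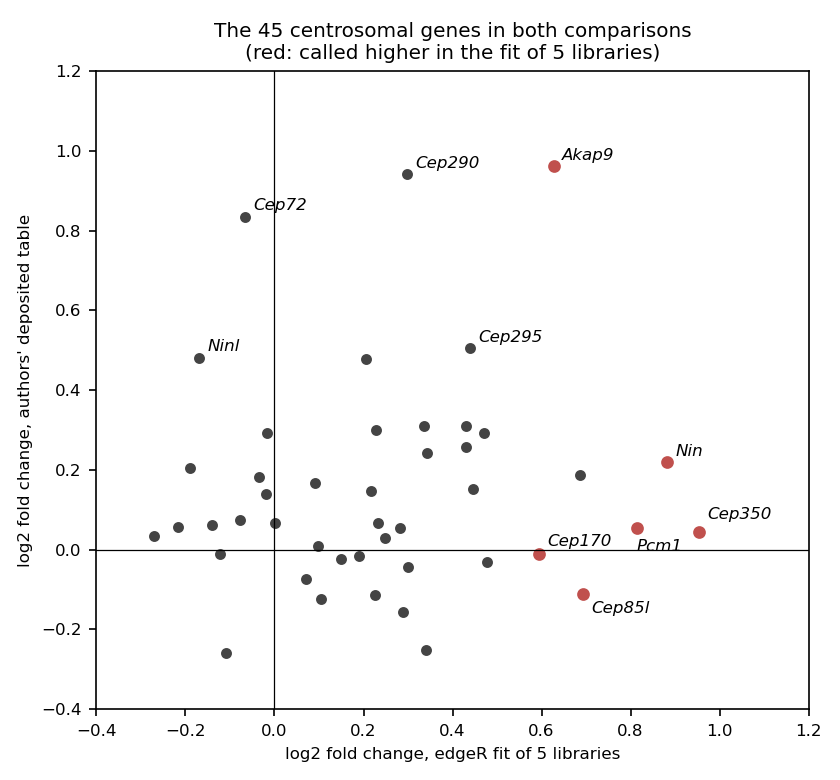
Log2 fold change of each of the 45 genes in the fit of 5 libraries (horizontal) and in the authors' deposited table (vertical); red points are called higher in the fit of 5 libraries. Akap9 is far from 0 on both axes (0.63 and 0.96), Cep290 mostly on the vertical one (0.30 and 0.94), and Cep350, Pcm1, Cep85l and Cep170 only on the horizontal one.

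Transcript tables show which RNA carried the counts. How many of all transcripts separate the groups was not counted, so the separations of single transcripts below have no background share. At the gene level, 21.1% of all genes and 55.4% of the longest decile had every het library above every WT library by CPM. The leading transcript by TPM was annotated as protein coding in 34 of the 45 genes. Cep350-204, of 13307 bases, held 94.9 to 97.7% of the Cep350 expected counts in every library. Its level was 3.16, 3.22 and 3.10 TPM in het and 1.39 and 1.59 TPM in WT, and the groups did not overlap. Pcm1-201 stood at 8.28, 8.08 and 8.83 TPM in het and 4.82 and 4.48 in WT. Another coding form, Pcm1-204, of 6484 bases, was at 0.97, 0.48 and 0.60 TPM in het and at 0.03 and 0.00 in WT. Its share of the Pcm1 expected counts was 5.47 to 10.2% in het and at most 0.62% in WT, so the groups did not overlap. Nin-202 was at 2.02, 2.09 and 2.11 TPM in het and 1.08 and 1.02 in WT. Cep85l counts fell on a single transcript, Cep85l-205, in every library. The leading transcript of Cep170, Cep170-211, is annotated as a retained intron and overlapped between groups (1.24, 2.46 and 0.97 TPM in het, 0.80 and 2.08 in WT).

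Akap9 differed between units. The long coding transcript Akap9-201, of 13123 bases, held 90.9 to 98.2% of the expected counts of the gene. It stood at 4.99, 4.27 and 5.08 TPM in het and 2.93 and 2.48 in WT, without overlap. A transcript of 718 bases, Akap9-208, annotated for nonsense-mediated decay, held 0.61 to 8.43% of the counts. Being short, it came to 1.14, 4.92 and 8.06 TPM in het and 3.89 and 9.46 in WT, and by mean TPM it was the leading transcript of Akap9. Gene-level Akap9 TPM therefore overlapped (6.64, 9.48 and 15.6 in het, 8.49 and 12.1 in WT), and its fold on log2(TPM + 1) was -0.021 where counts gave 0.63.

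Pericentrin RNA was split among forms in another way. Most Pcnt counts fell on Pcnt-208, annotated as a processed transcript of 6762 bases, at 7.66, 9.67 and 8.73 TPM in het and 8.18 and 6.57 in WT. The coding Pcnt-202, of 9341 bases, was at 3.06, 3.18 and 2.09 TPM in het and 1.18 and 0.50 in WT. Coding transcripts made up 16.9% ± 0.23 (SD, n = 3) of Pcnt TPM in het and 7.75% ± 1.3 (SD, n = 2) in WT. For Nin the coding share was 93.1% ± 3.5 (SD, n = 3) and 68.7% ± 7.5 (SD, n = 2). Of 41 genes of the family with both coding and other transcripts, 6 had a higher coding share in every het library (Cep250, Cep78, Cntrl, Nin, Ninl and Pcnt) and 2 a lower one. Over 10898 such genes these shares were 14.2% and 7.68%, and over those in deciles 9 and 10 of length the higher share was 18.3%, so the family stood near the background. With 3 against 2 libraries the smallest exact two-sided permutation p is 0.2, so no share can pass 0.05 alone. Such splits rest on RSEM's model of reads that several transcripts share.

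**Figure D5:**
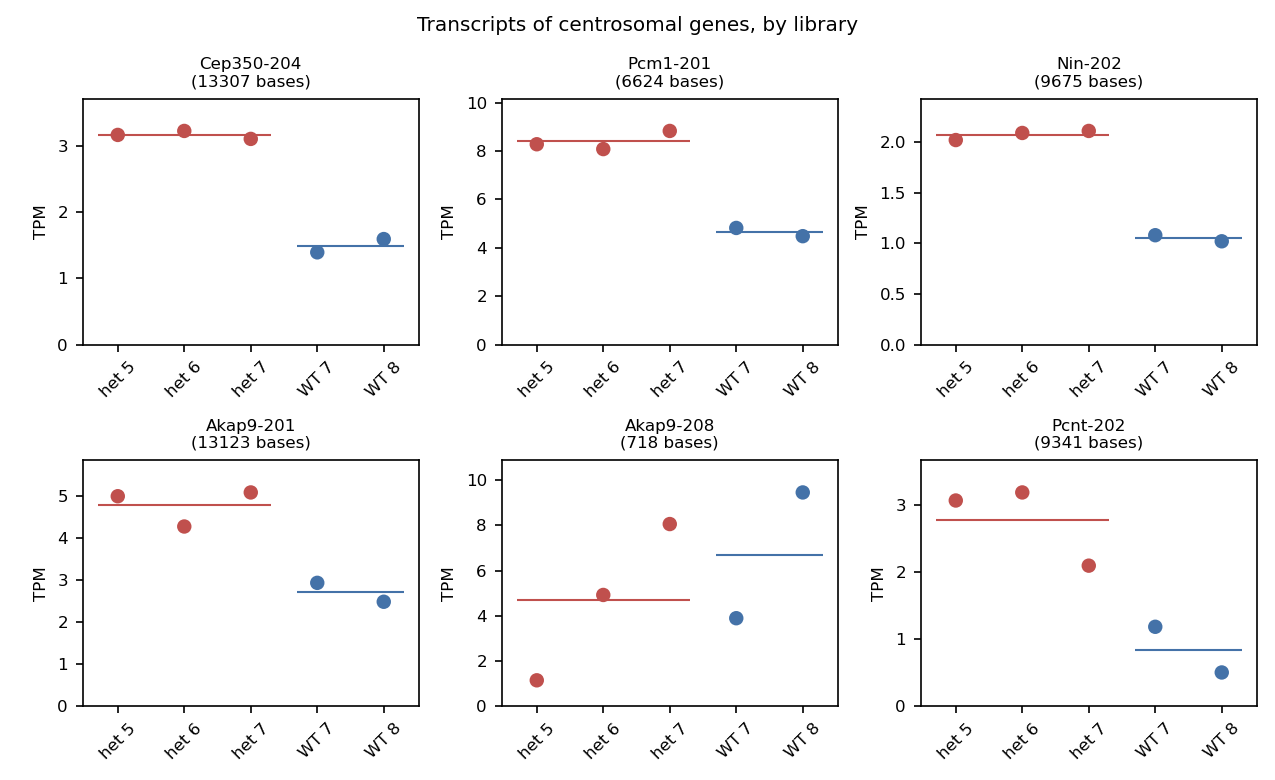
TPM (axes from 0) of 6 transcripts in each of the 5 libraries, red for het and blue for WT, with group means as lines. The long transcripts Cep350-204, Pcm1-201, Nin-202, Akap9-201 and Pcnt-202 lie higher in all het libraries, while the 718-base Akap9-208 ranges from 1.14 to 9.46 TPM and overlaps. The share of all transcripts that lie so was not counted. By CPM, 55.4% of all genes in the longest decile did.

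Other genes of the pathway were counted in 7 lists holding 102 tested genes, of which 8 were called higher and 0 lower (beside 2.99% of all genes called higher and 15.9% of those in the longest decile), with a median of 0.05. The list for anchoring at the nuclear envelope in muscle had 4 of 14 higher and 0 lower, with a median length of 4262 bases, where decile 9 has 6.28% of all genes called higher. These were Akap6 (0.57, SE 0.14), which tethers pericentriolar proteins there, Syne1 (0.66, SE 0.16), the nesprin-1 gene, Camsap2 (0.57, SE 0.13), which caps free microtubule ends, and Macf1 (0.53, SE 0.14), a linker of actin and microtubules. Akap6 had 239, 223 and 273 CPM in het and 154 and 177 in WT, and Syne1 had 109, 85.5 and 112 in het and 73.5 and 55.7 in WT. In neither gene did the groups overlap. The called genes of this list are long too (14826 bases for Akap6, 6359 for Syne1, 5640 for Camsap2 and 4199 for Macf1). Akap6, Syne1 and Camsap2 fall in the longest decile, where 15.9% of all genes were called higher. Without the trends on length and GC, Akap6 stood at 0.60, Syne1 at 0.49, Macf1 at 0.35 and Camsap2 at 0.26. In the authors' deposited table these 4 genes stood at 0.12, 0.07, -0.11 and 0.03.

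In the gamma-tubulin and augmin list 1 of 19 was higher and 0 lower, Nedd1 (0.58, SE 0.15), which attaches gamma-tubulin rings. Ttbk2, the kinase that starts cilium assembly, was the 1 higher of 10 appendage genes (0.63, SE 0.14), and Mib1, a ubiquitin ligase of satellites, the 1 higher of 13 satellite partners (0.55, SE 0.13). Of 10 Akap9 partners Pde4d, the cyclic AMP phosphodiesterase, was higher (0.74, SE 0.14), with 30.9, 34.3 and 31.0 CPM in het and 19.1 and 19.2 in WT. Without the trends on length and GC, Nedd1 stood at 0.42, Ttbk2 at 0.47, Mib1 at 0.26 and Pde4d at 0.65. In the authors' deposited table Pde4d stood at 1.2, Nedd1 at -0.16, Ttbk2 at -0.10 and Mib1 at -0.02. Centriole assembly (20 genes) and the ciliary transition zone (16 genes) had 0 calls, with medians of 0.17 and -0.12. The abundant centrin genes Cetn3 (-0.19) and Cetn2 (-0.09) and the transition zone genes B9d2 (-0.53) and Mks1 (-0.46) were not called. At an unadjusted p under 0.05 by edgeR the assembly list had 2 genes higher and 1 lower and the transition zone list 2 higher and 2 lower, near the shares of all genes (12.9% and 11.9%).

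Markers of cell types that carry or lack these structures were set beside the family. Marker calls stand beside 2.99% of all genes called higher and 2.66% lower. Of 8 heart muscle markers Ryr2 was higher (0.69) and Nppa (-0.64) and Tnni3 (-0.60) lower, and without the trends on length and GC these stood at 0.53, -0.29 and -0.23. Ryr2 is 8897 bases long, Nppa 865 and Tnni3 829. In the authors' deposited table Ryr2 stood at 0.73, Nppa at -0.06 and Tnni3 at 0.21, and 7 of the 8 heart muscle markers were above 0. The summed TPM of the list was 78485 to 90575 in het and 100854 to 109151 in WT. Of 7 macrophage markers Adgre1 (1.14) and Cd163 (1.03) were higher, and their list summed to 217.0 to 284 TPM in het and 187 to 189 in WT. Without the trends on length and GC, Adgre1 stood at 1.07 and Cd163 at 0.85. In the authors' deposited table Adgre1 stood at -0.06 and Cd163 at -0.02, and 0 of the 7 macrophage markers were above 0. Fibroblast markers summed to 1056 to 1120 TPM in het and 617 to 952 in WT, with 1 of 7 higher (Lum, 0.50, and -0.06 in the authors' deposited table). Lum stood at 0.39 without the trends on length and GC. Of the 7 folds 4 were above 0 and 3 below, and the uncalled Dcn had the highest TPM of the list (mean 593). Endothelial markers summed to 402 to 414 TPM in het and 407 to 419 in WT, with 1 of 6 lower (Egfl7, -0.60). Egfl7 stood at -0.22 without the trends on length and GC, and at -0.20 in the authors' deposited table. Of 5 erythroid markers 0 were called, and the summed TPM did not overlap, at 11766 to 19995 TPM in het and 2048 to 8750 in WT. Markers of cycling cells, which carry complete centrosomes, were low: 11 markers summed to 5.91 to 15.8 TPM in het and 6.14 to 8.99 in WT, overlapping, with 0 called. Of the 11 cycling cell folds 9 were above 0 and 2 below, with a median of 0.42. The authors' deposited table holds 10 of these markers, and 10 were above 0 there, with a median of 0.71. Multiciliated cell markers summed to 4.53 to 5.42 TPM in het and 6.24 to 6.62 in WT, with 3 of 9 tested and 0 called. Of these, Foxj1, which directs the multiciliated state, stood at 0.07 TPM or less, and Dnah5 was listed at 0 TPM in all 5 libraries. The part of cell makeup in the higher centrosomal genes was not tested.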

How the data were processed

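RNA of snap-frozen atria was sequenced by the submitters as stranded polyA, paired-end libraries, per the labels' protocols. Per the submitters' processing notes, which give no versions, Trim Galore, STAR, RSEM, limma and edgeR were used with the build GRCm39; other steps are not given in the sources used here. The deposited gene and transcript tables hold expected counts, not normalized, per the file headers. They also hold the authors' TPM, scaled to length and library total, their FPKM (not used here) and the isoform percent of each transcript, per the file headers. The authors' deposited table of het against WT holds log2 fold changes, t scores and p-values. Its model and samples are not given in the sources used here; its t is 0 below a fold of 1.2, so its p-values are read as tests against that minimum fold.

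Expected counts were rounded. The filterByExpr function of edgeR kept 16412 of 57186 genes. After TMM scaling, edgeR's robust quasi-likelihood test was run (3 het against 2 WT libraries), with Benjamini-Hochberg adjustment over all tested genes. An SE was taken as the size of the log2 fold change over the root of its F statistic. The biological coefficient of variation was 0.18. Depth was 17784601 to 28353091 expected counts per library, which limits genes of few counts. Symbols came from the authors' table, else from a reference table of gene names. GC content came from GENCODE M21 transcripts (98.4% of tested genes; the median was used for the rest). Length is the mean over libraries of RSEM's gene length, which averages the transcripts of a gene by abundance. Short forms of a gene therefore lower it: Akap9 stands at 5909 bases, well below its long coding transcript. The length deciles share this limit.

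Named were the called genes of the family, the genes of highest and lowest TPM in each role, 9 genes chosen by name, and the called or else most abundant genes of each pathway list. Other genes with values (Cep19, Cep43, Cep44, Cep68, Cep78, Cep128, those named for their coding share, and the called markers) were named after their values were seen. Members and lists were chosen with earlier results of these data known. Alternatives were DESeq2, limma-voom, limma-trend on log2 TPM with a pseudocount of 1 or 0.1, other scalings and filters, length and GC trends (mgcv) as edgeR offsets, and each library left out. In a simulated het against WT comparison of 15990 genes, the fit recovered 67% of genes given a log2 change of 1 and 100% of genes given 2, with 5 false among 172 calls. The simulation gave every gene the same coefficient of variation of 0.18 and held no trend on length or GC. Changes were placed only in genes of higher count. It therefore does not measure errors among the calls in the real libraries. Versions were mgcv 1.9.3, DESeq2 1.42.0, limma 3.58.1 and edgeR 4.0.16, under R 4.3.3.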

Additional observations from a re-analysis of the deposited data

How the results depend on the processing

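Over all genes, DESeq2 called 867 higher and 780 lower, limma-voom 237 and 222, every gene with a count 1304 and 907, and library size alone 795 higher. Calls were 0 and 1 on log2(TPM + 1), 2 and 3 on log2(TPM + 0.1), 11 and 9 without the length trend, and 24 and 13 without trends on length and GC. With 1 library left out they ran from 0 to 588 higher and 0 to 290 lower. The family had 0 genes called higher on log2(TPM + 1), on log2(TPM + 0.1), without the length trend and without trends on length and GC, and 0 to 7 with 1 library left out. It had 0 lower in all 16 alternatives. The median log2 fold change of the family was 0.27 by library size alone, 0.18 by upper quartile, 0.28 with every gene with a count, 0.31 on log2(TPM + 0.1), 0.14 without the length trend and 0.085 without trends on length and GC. It ran from 0.16 to 0.29 with 1 library left out. With every gene with a count, the median of all tested genes lay at -0.14. Fits without WT 7 or WT 8 hold 1 WT library, assumed to vary like the het libraries. Akap9 turned to -0.021 on log2(TPM + 1) and -0.028 on log2(TPM + 0.1). Het minus WT shares of the leading transcript were -1.11 percentage points for Cep350 and -6.92 for Pcm1 by expected counts, against -10.8 and -3.40 by TPM. The leading transcript of Akap9 by TPM was the short one annotated for nonsense-mediated decay, not the long coding one. Its share went from -21.8 by TPM to -3.73 by expected counts. That of Nin turned from 3.90 by TPM to -2.15 by expected counts. Akap9 and Cep350 were called in 8 and 9 of 16 alternatives, Nin and Pcm1 in 9 each, Cep85l in 7 and Cep170 in 5. Where no value above shows the cause of a change, the cause was not tested. No paired analysis was run, because the labels used here name no pairs of het and WT libraries. Depth leaves low genes such as Cep72 imprecise.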
